A study of Mus musculus with 8 samples.

Results

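The miR-15/16 family miRNAs were followed across the 3 groups of an induction experiment with Indian hedgehog protein. They were chosen by name, with earlier results of these data known, as the 5p arms of miR-15a, miR-15b, miR-16, miR-195 and miR-497. All 5 were among the 611 mouse miRNAs on the array. Of these 5, mmu-miR-15a-5p, mmu-miR-15b-5p and mmu-miR-16-5p were detected on all 8 arrays. The other two, miR-195-5p and miR-497-5p, lay at or near background.

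The cells were C3H10T1/2, a mesenchymal line of mouse origin in which hedgehog proteins switch on their pathway. The WT group was given 750 nM of wild type IhhN, the signalling N-terminal part of Indian hedgehog, for 48 h, and the MT group was given the same amount of IhhN carrying the E95K change. The control group is labelled as having no protein induction, although another of its labels also states 750 nM, and it was taken here as untreated. Each group had 2 RNA samples, nothing in the labels says that they came from separate cultures, and p-values therefore measure only the spread between these samples. All groups are the same cell line, and the recombinant protein was added to the medium, so no group carries an altered gene of its own. The array measured miRNAs only, so neither the cell type nor the hedgehog response was checked against marker mRNAs here.

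WT samples were hybridised on 2 arrays apiece, which were averaged, and MT and control samples on 1, all on 1 slide. The left side of that slide held WT replicate 1 and the MT samples, and the right side held WT replicate 2 and the control samples. The arrays of WT replicate 1 and MT replicate 1 stood apart in sensitivity, with 104 to 117 mouse miRNAs detected against 143 to 150 on the other 5 arrays.

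miRNAs are short RNAs that guide a silencing complex to mRNAs, mainly through pairing of the seed, bases 2 to 8 counted from the 5′ end, and so lower the output of those mRNAs. Members of the miR-15/16 family share a seed and are known to repress G1 cyclins, cyclin-dependent kinases and the survival protein BCL2, which slows entry into the cell cycle. In people the miR-15a and miR-16-1 genes are often deleted together in chronic lymphocytic leukaemia.

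The mature sequences are shown because the seed is common to all 5 and the differences lie in the rest of the molecule. They are given 5′ to 3′ from RefSeq for build GRCm38.p6, with the seed in capitals, and 495 of the 611 array names, all 5 members included, matched that table. RefSeq lists miR-195-5p and miR-497-5p with an a after the number. The lines of miR-322-5p and miR-503-5p are added for comparison.
miR-15a-5p: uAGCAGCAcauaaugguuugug
miR-15b-5p: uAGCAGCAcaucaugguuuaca
miR-16-5p: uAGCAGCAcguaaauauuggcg
miR-195-5p: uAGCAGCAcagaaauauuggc
miR-497-5p: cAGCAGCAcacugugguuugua
miR-322-5p: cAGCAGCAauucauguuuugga
miR-503-5p: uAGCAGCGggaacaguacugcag

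Among the other mouse miRNAs on the array that matched RefSeq, 1 had the same seed, miR-322-5p. miR-503-5p is often grouped with the family, and its seed ends in a different base (capitals in its line). Positions being counted from the 5′ end without gaps, miR-15a-5p and miR-15b-5p had the same base at 18 of 22 positions, and the changes from the first to the second were A12C, G20A, U21C and G22A. miR-16-5p and miR-195-5p had the same base at 19 of the 21 positions compared, with G10A and U11G as the changes from miR-16-5p. miR-15b-5p and miR-16-5p shared 14 of 22.

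The family is encoded as pairs of neighbouring hairpins. miR-15a-5p lies at chr14:61632075-61632096 on the minus strand, inside the span of Dleu2, a long non-coding RNA gene. miR-15b-5p lies at chr3:69009775-69009796 on the plus strand, inside the span of Smc4, which encodes a condensin subunit. The same mature miR-16-5p is made from both loci, at chr14:61631936-61631957 from Mir16-1 and at chr3:69009918-69009939 from Mir16-2. miR-497-5p and miR-195-5p lie together on the plus strand at chr11:70234730-70234751 and chr11:70235062-70235082. Whether these positions are exonic or intronic was not looked up here. The hairpins of miR-16 are shown because both hold the same mature strand, in capitals here, and differ around it, so that the probes for miR-16-5p cannot tell the genes apart.
Mir16-1: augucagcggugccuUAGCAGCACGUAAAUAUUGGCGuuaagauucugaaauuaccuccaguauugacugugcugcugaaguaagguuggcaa
Mir16-2: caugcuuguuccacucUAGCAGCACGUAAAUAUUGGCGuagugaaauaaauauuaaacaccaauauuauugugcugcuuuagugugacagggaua

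Against control, miR-15a-5p and miR-16-5p read lower and miR-15b-5p higher in both the WT group and the MT group, and none of these differences passed the test after adjustment. The WT and MT groups overlapped for all 3. Values are log2 of the background-subtracted signal after scaling each array to the 75th percentile of its 174 probes that every array detected, so a difference of 1 is 2-fold, and a level of one miRNA cannot be set against the level of another because each has its own probe.

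miR-15a-5p, the partner of miR-16-1 in the Dleu2 locus, had log2 levels of 6.42 and 6.85 in the WT samples, 6.47 and 6.61 in the MT samples and 7.02 and 7.18 in the control samples. Both control samples lay above every sample given protein, and WT replicate 2 lay nearest to them. The group means were 6.63 ± 0.31 (SD, n = 2) for WT, 6.54 ± 0.10 for MT and 7.10 ± 0.11 for control.

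miR-15b-5p, the partner of miR-16-2 in the Smc4 locus, had log2 levels of 9.27 and 8.96 in the WT samples, 9.21 and 9.13 in the MT samples and 8.92 and 8.54 in the control samples. Here both control samples lay below every sample given protein, though WT replicate 2 was only just above control replicate 1. The group means were 9.11 ± 0.22 (SD, n = 2) for WT, 9.17 ± 0.06 for MT and 8.73 ± 0.27 for control.

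miR-16-5p, the product of both loci, had log2 levels of 8.61 and 8.76 in the WT samples, 8.33 and 8.77 in the MT samples and 9.24 and 9.04 in the control samples. The control samples were again the highest, and the lowest was MT replicate 1, one of the samples with few miRNAs detected. The group means were 8.69 ± 0.10 (SD, n = 2) for WT, 8.55 ± 0.31 for MT and 9.14 ± 0.14 for control.

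**Figure D1:**
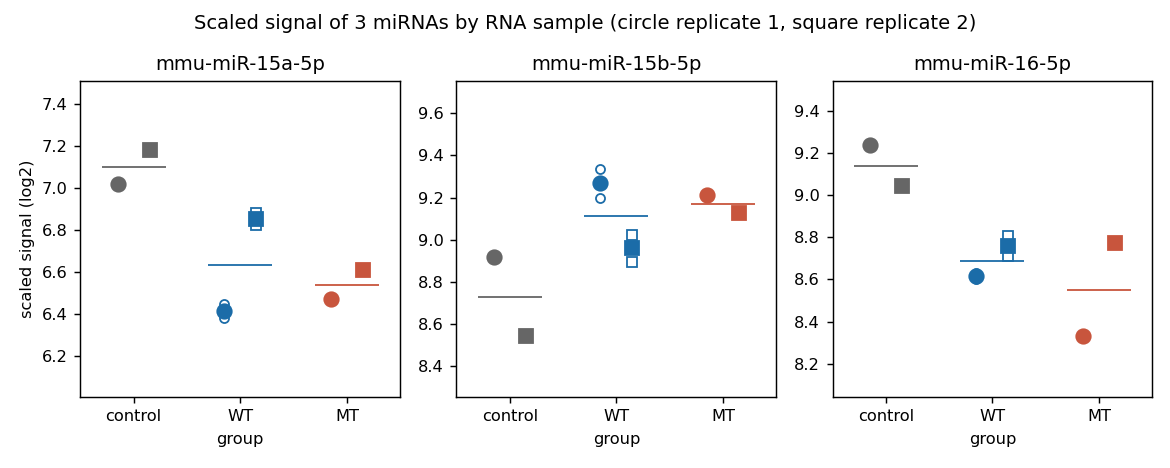
Scaled log2 signal (vertical axes, each spanning 1.5 log2 units) of the 3 detected miRNAs in the control, WT and MT groups. Filled points are RNA samples, open points the single arrays of the WT samples and lines the group means. The control samples are the highest for miR-15a-5p and miR-16-5p and the lowest for miR-15b-5p.

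The arrays of one RNA differed less than the 2 RNA samples of the WT group for each of the 3 miRNAs, but for miR-15b-5p they differed more than the MT samples did. For WT replicate 1 the arrays differed by 0.06 for miR-15a-5p, 0.14 for miR-15b-5p and 0.03 for miR-16-5p on the log2 scale, and the median over the 142 miRNAs tested was 0.10. For WT replicate 2 the differences were 0.06, 0.13 and 0.09, with a median of 0.08. Between the 10 spots of a probe on one array the coefficient of variation had a median of 4.74% for miR-15a-5p, 5.23% for miR-15b-5p and 5.16% for miR-16-5p. The arrays of one RNA lay in neighbouring columns, so their agreement does not cover differences between distant columns.

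The signal of miR-195-5p was close to the limit of the array. Its scaled signal, on the linear scale, was 14.0 and 16.5 on the arrays of WT replicate 1, 16.5 and 16.8 on those of WT replicate 2, 10.4 and 15.8 in the MT samples, and 23.2 and 20.4 in the control samples. It was detected, with over 50% of its spots well above background, on the 2 control arrays, and was not well above background on the WT and MT arrays. The lowest signal of any detected probe was 40.6 and 24.5 on the arrays of WT replicate 1 and 38.1 on that of MT replicate 1. It was 16.85 and 16.92 on the arrays of WT replicate 2, 16.84 on that of MT replicate 2, and 12.1 and 16.1 on the control arrays. The arrays thus differed in how dim a probe they could detect. In WT replicate 1 and MT replicate 1 the limit lay above the signal that miR-195-5p had in control. In WT replicate 2 and MT replicate 2 it lay below that signal. The control mean was no higher than the bound these limits set for either other group, and no fold is given.

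miR-497-5p, from the same locus, had scaled signals of 11.2 to 16.1 on the 8 arrays. It was detected on the array of control replicate 1 alone and was not tested. By Feature Extraction's own detection call, which is made per miRNA and is more permissive here, miR-195-5p was detected on 6 arrays and miR-497-5p on 5.

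**Figure D2:**
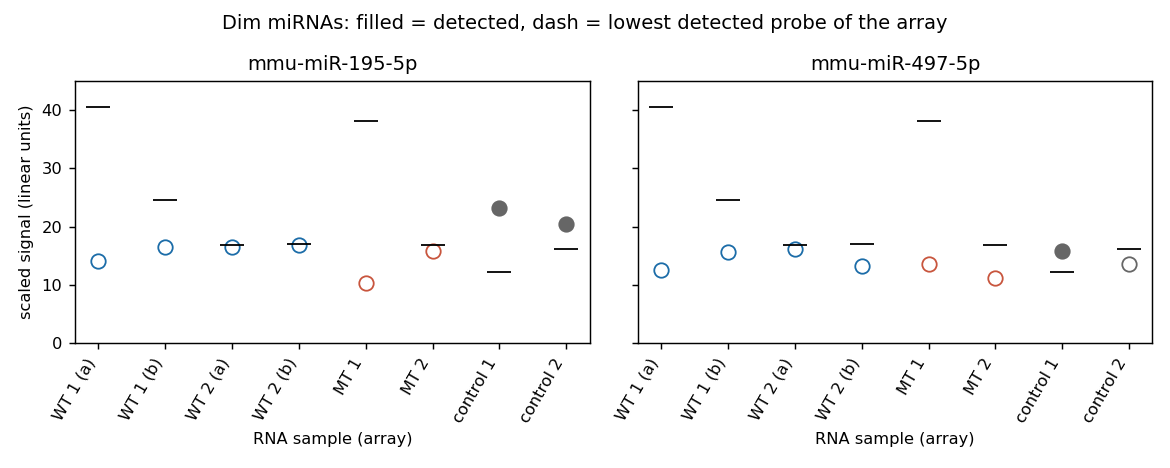
Scaled signal (vertical axis, linear units) of miR-195-5p and miR-497-5p on each of the 8 arrays, named by RNA sample, with a and b for the arrays of one WT sample. Filled points were detected, open points were not, and the dash is the lowest signal of any detected probe on that array. It lies between 12.1 and 40.6, and the detected points are all in control.

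The first comparison asked how miRNAs differed after wild type IhhN. In limma's moderated test over 142 miRNAs, those that every array of at least 1 group detected, with Benjamini-Hochberg adjustment, 0 of the 3 members detected on all arrays passed an adjusted p of 0.05, and 0% of all miRNAs tested did. miR-195-5p was also in the fit, but it entered through the control group alone and is not counted here. miR-15a-5p was 1.38-fold lower in WT than in control, a log2 difference of -0.46 (SE 0.19, 95% interval -0.92 to -0.01, limma adjusted p = 0.167). miR-16-5p was 1.37-fold lower, at -0.45 (SE 0.19, interval -0.92 to 0.01, limma adjusted p = 0.171). miR-15b-5p was 1.31-fold higher, at 0.39 (SE 0.19, interval -0.07 to 0.84, limma adjusted p = 0.212), and was at 0.027 when arrays were scaled over all mouse probes, where the median of all miRNAs was -0.19.

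At an unadjusted p under 0.05 there was 1 of the 3, miR-15a-5p, against 28.2% of all miRNAs tested. In a limma fit of only the miRNAs detected on all 8 arrays, as these 3 were, 33 of 103 were under 0.05. At the brighter probes the WT and control samples did not overlap for 3 of 3, against 64.8% of all tested, a common outcome in this comparison. The median difference over all 142 was 0.11 and the median size, without sign, was 0.317, so the members' differences were of a size that many miRNAs reached. The value of miR-15a-5p was smaller in size without WT replicate 1, at -0.25, and that of miR-15b-5p was 0.23 without WT replicate 1 and 0.20 without control replicate 2.

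The second comparison asked the same of the E95K protein. Again 0 of 3 members passed in limma's test, and 0% of all miRNAs tested. miR-16-5p was 1.50-fold lower in MT than in control, at -0.59 on the log2 scale (SE 0.19, interval -1.05 to -0.13, limma adjusted p = 0.0876). miR-15a-5p was 1.47-fold lower, at -0.56 (SE 0.19, interval -1.01 to -0.10, limma adjusted p = 0.0890). miR-15b-5p was 1.36-fold higher, at 0.44 (SE 0.19, interval -0.02 to 0.90, limma adjusted p = 0.132), but when arrays were scaled over all mouse probes it was lower, at -0.27, where the median of all miRNAs moved from 0.13 to -0.51.

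At an unadjusted p under 0.05 there were 2 of the 3, miR-15a-5p and miR-16-5p, against 39.4% of all tested. In a limma fit of only the miRNAs detected on all 8 arrays, 49 of 103 were under 0.05. The groups did not overlap for 3 of 3, against 67.6% of all tested. miR-16-5p passed the adjusted threshold in some other settings, each of which called many miRNAs. It did so with normexp background correction, where 40 of 142 were called (-0.51, limma adjusted p = 0.0188). It also passed when only miRNAs detected on all 8 arrays were tested, with 29 of 103 called (-0.59, limma adjusted p = 0.0487), and without MT replicate 2, with 18 of 142 called (-0.81, limma adjusted p = 0.0464). Without MT replicate 1, which had few miRNAs detected and the lowest miR-16-5p level, its difference was -0.37. The value of miR-15b-5p was 0.25 without control replicate 2. With normexp background correction miR-15a-5p was smaller in size, at -0.21 (limma adjusted p = 0.396), where the median of all miRNAs was 0.17.

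The third comparison set the 2 proteins side by side. The number of members that passed was 0 of 3, with 0% of all miRNAs tested passing, and at an unadjusted p under 0.05 there were likewise 0 members and 0% of all tested in limma's fit. The WT minus MT difference was 0.09 for miR-15a-5p (interval -0.36 to 0.55), -0.06 for miR-15b-5p (interval -0.51 to 0.40) and 0.13 for miR-16-5p (interval -0.33 to 0.60), each with a limma adjusted p of 0.990. The groups did not overlap for 0 of the 3, against 26.1% of all tested. These intervals reach sizes as large as the differences from control, so they do not show that the proteins act alike. All of these small differences changed sign under some other setting.

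**Figure D3:**
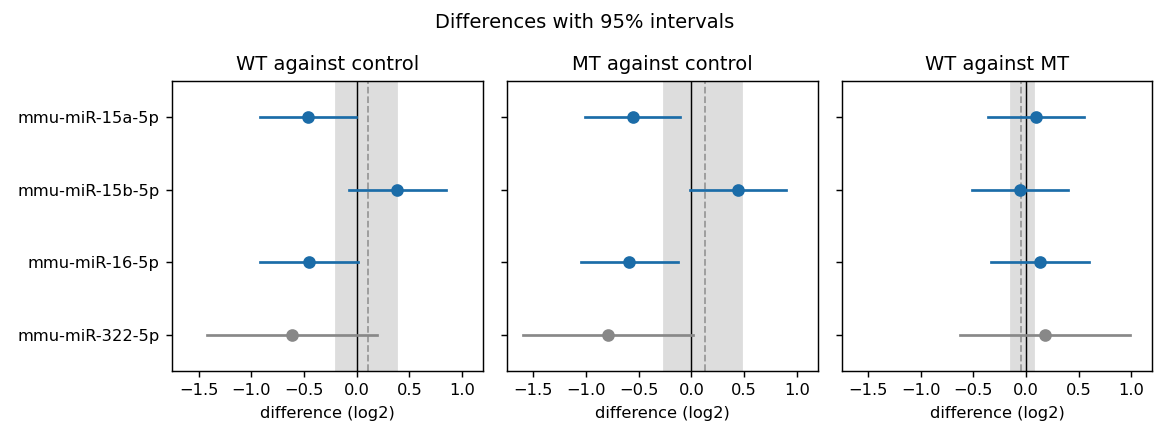
Log2 differences (horizontal axes, points) with 95% intervals from limma's fit for the 3 detected members, in blue, and for miR-322-5p, in grey, in the 3 comparisons. The shaded band runs from the lower to the upper quartile of the 142 miRNAs tested and the dashed line their median. The 3 members lie between -0.06 and 0.13 for WT against MT, while against control miR-15b-5p lies on the other side of 0 from the other members.

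The side of the slide moved with the groups. WT replicate 2, on the right side with both control samples, differed from the control mean by -0.25 for miR-15a-5p, 0.23 for miR-15b-5p and -0.38 for miR-16-5p. WT replicate 1, on the left side, differed from the same control mean by -0.68, 0.54 and -0.53. The directions were the same for both WT samples and the sizes were smaller for the one that shared a side with control. WT replicate 1 differed from the mean of the MT samples on its own side by -0.13, 0.10 and 0.06. No control sample lay on the left and no MT sample on the right, so for MT against control the side and the group cannot be told apart. The side was also added as a term in the fit, a term that rests on the WT samples alone. MT minus control was then -0.12 for miR-15a-5p, 0.13 for miR-15b-5p and -0.45 for miR-16-5p, each with a limma adjusted p of 0.945. The median of all miRNAs tested was 0.14 there, so miR-15b-5p lay close to the median.

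The ratio of 2 miRNAs on the same array does not depend on scaling that divides each array by a single value, so it shows unequal change directly. Quantile normalization and background correction can still change this ratio. This measure was chosen after the values were seen, and its absolute value has no meaning because the probes differ, but its change between groups does. The log2 ratio of miR-15b-5p over miR-16-5p was 0.65 and 0.20 in the WT samples, 0.88 and 0.35 in the MT samples and -0.32 and -0.50 in the control samples. All 4 samples given protein lay above both control samples, with WT replicate 2 the nearest. This separation follows from the levels of the 2 miRNAs given above and is no further support for them. How often other pairs of miRNAs separate the groups was not looked at. The mean ratio was 1.79-fold higher in WT than in control (log2 difference 0.84) and 2.04-fold higher in MT than in control (log2 difference 1.03). In a two-sided exact permutation test p was 0.333 for each, which is the smallest p that 2 samples against 2 can give. With normexp background correction the log2 differences were 0.72 and 0.90, and with quantile normalization they were 0.86 and 1.04.

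The ratio of miR-15b-5p over miR-15a-5p, which come from different loci and share 18 of 22 bases, had log2 values of 2.85 and 2.11 in the WT samples, 2.74 and 2.52 in the MT samples and 1.90 and 1.36 in the control samples. As the levels above imply, it was higher in every sample given protein, by 0.85 on average in WT and 1.00 in MT (exact permutation p = 0.333 for each). These differences were smaller with normexp background correction, at 0.43 and 0.59, and were 0.85 and 1.15 with quantile normalization. The ratio of miR-16-5p over miR-15a-5p instead overlapped between all groups, at 2.20 and 1.90 in WT, 1.86 and 2.16 in MT and 2.22 and 1.86 in control, with mean differences from control of 0.01 and -0.03 (exact permutation p = 1 and 0.667). With normexp background correction these differences were -0.29 and -0.31, and with quantile normalization they were -0.01 and 0.11. Between WT and MT the ratio of miR-15b-5p over miR-16-5p differed by -0.19, with overlapping samples (exact permutation p = 0.667). These 9 tests share samples, and the design cannot reach an adjusted p of 0.05 for any of them.

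A second probe on the array read each of these miRNAs. The dimmer probes gave -0.48 and -0.53 for miR-15a-5p in WT and MT against control, 0.34 and 0.41 for miR-15b-5p, and -0.45 and -0.53 for miR-16-5p. The direction was the same at both probes of each miRNA in these comparisons. At the dimmer probe of miR-15b-5p, however, WT replicate 2 did not lie above control replicate 1. Its arrays read 8.01 and 8.04, against 8.03 for control replicate 1, so the WT and control samples overlapped there. From the dimmer probes the log2 ratio of miR-15b-5p over miR-16-5p was higher by 0.79 in WT and 0.94 in MT than in control, again without overlap. Within the right side of the slide, WT replicate 2 exceeded the control mean by 0.61 in this ratio from the brighter probes, and the 2 WT samples, on different sides, differed by 0.45. For miR-15b-5p over miR-15a-5p these values were 0.48 and 0.75. With the side as a term, MT minus control was 0.58 for the ratio over miR-16-5p and 0.25 for the ratio over miR-15a-5p.

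**Figure D4:**
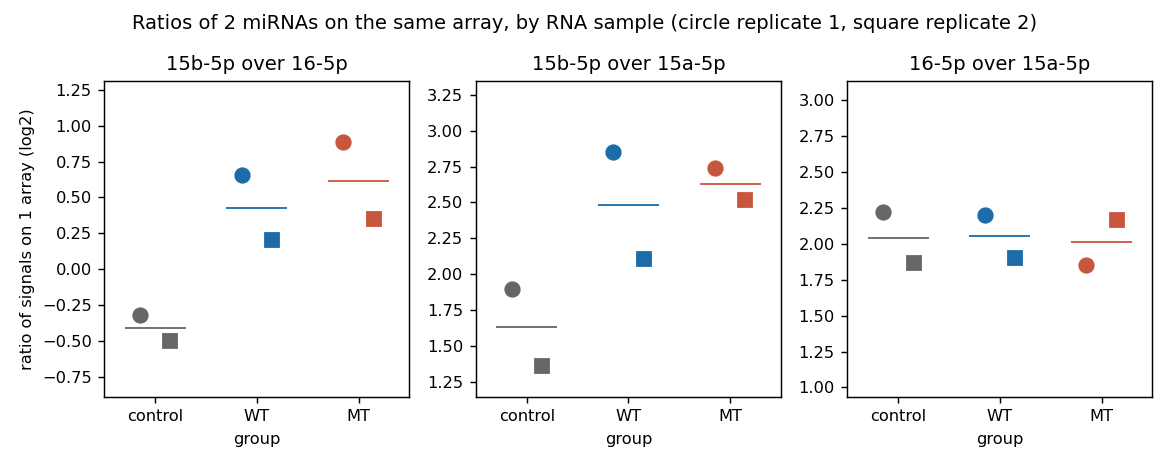
Log2 ratio of the signals of 2 miRNAs on the same array (vertical axes, each spanning 2.2 log2 units) by RNA sample in the 3 groups, with lines at the group means. For miR-15b-5p over miR-16-5p and over miR-15a-5p the control samples are below all others, with smallest exact permutation p of 0.333. For miR-16-5p over miR-15a-5p the groups overlap.

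Base composition moved with the differences over all miRNAs. Across the 122 of 142 tested miRNAs with a RefSeq sequence (85.9%), the share of G and C bases had a Pearson r of 0.49 with the WT minus control difference and 0.53 with the MT minus control difference, and -0.29 with WT minus MT (Spearman's rho 0.52, 0.54 and -0.23). The miRNAs share the same arrays and are not independent, so these values are descriptions. miR-15a-5p and miR-15b-5p have the same share, 40.9%, and differed from control in opposite directions. The share is 45.5% in miR-16-5p. The part of base composition in the members' differences was not tested.

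**Figure D5:**
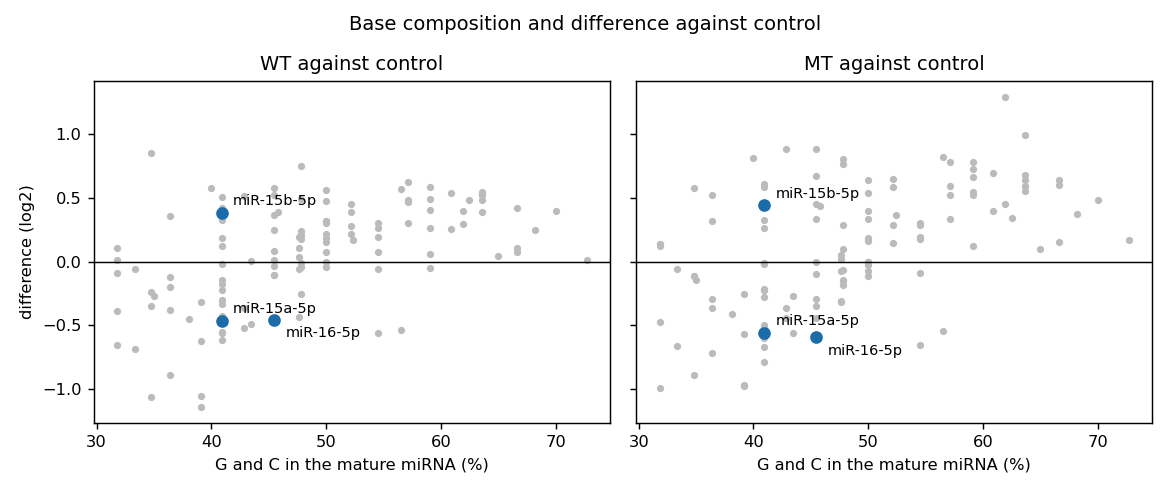
Share of G and C in the mature miRNA (horizontal axes, %) against the log2 difference from control (vertical axis) for the 122 tested miRNAs with a RefSeq sequence (grey), with the 3 members in blue. The differences tend to be higher at a higher share (r of 0.49 and 0.53), and miR-15a-5p and miR-15b-5p lie at the same share, 40.9%, on opposite sides of 0.

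miR-322-5p, the other miRNA with this seed, comes from a cluster on the X chromosome that also encodes miR-503-5p and is known for promoting cell cycle exit in muscle precursor cells. Its log2 levels were 8.63 and 9.52 in WT, 8.87 and 8.93 in MT and 9.33 and 10.05 in control. The control samples lay above both MT samples, while WT replicate 2 lay between them. Its difference from control was -0.61 in WT (limma adjusted p = 0.244) and -0.79 in MT (limma adjusted p = 0.132). miR-503-5p had log2 levels of 5.47 and 6.39 in WT, 6.55 and 5.31 in MT and 5.80 and 7.14 in control. Its replicates differed by more than the groups did, with differences from control of -0.54 in both WT (limma adjusted p = 0.527) and MT (limma adjusted p = 0.506).

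The opposite arms of the family hairpins, usually degraded after processing, were represented by 3 of the 8 names searched, miR-15a-3p, miR-15b-3p and miR-16-1-3p, and were detected on 0 of the 8 arrays.

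Of 21 other miRNAs generally known as cell cycle regulators, such as let-7, the miR-17 family and miR-34, 20 were on the array and 18 were tested, of which 0 passed in any comparison in limma's test. At an unadjusted p under 0.05 there were 7 in the comparison of WT with control, 8 in that of MT with control and 0 between WT and MT, out of 18 each time, against 28.2%, 39.4% and 0% of all miRNAs tested. In both comparisons with control, 9 of the 18 read higher and 9 lower, with medians of -0.02 and 0.05 against 0.11 and 0.13 over all tested. The differences ran from -0.63 to 0.53 in WT, and from -0.57 to 0.67 in MT. The largest were miR-34b-5p, of the p53-induced miR-34 family, at -0.63 in WT (limma adjusted p = 0.139), and let-7b-5p, at 0.67 in MT (limma adjusted p = 0.0611). For WT against MT the largest was miR-93-5p, of the miR-17 family, at -0.19 (limma adjusted p = 0.990).

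The miRNAs whose log2 levels ran most like each member over the 6 RNA samples were listed by Pearson r, as a description over samples that fall into 3 groups. For miR-15a-5p they were miR-30e-5p (r = 0.984), miR-26b-5p (0.980) and miR-542-3p (0.974), all of them lower in both protein groups than in control. For miR-15b-5p they were miR-31-5p (r = 0.980), miR-652-3p (0.979) and miR-331-3p (0.977), all higher in both. For miR-16-5p they were miR-350-3p (r = 0.986), miR-130a-3p (0.979) and miR-212-3p (0.964), all lower in both. These shared directions follow from choosing the miRNAs by a high r over the same samples. For miR-195-5p, at the floor in 4 of the 6 samples, they were miR-146a-5p (r = 0.914), miR-34c-5p (0.910) and miR-29b-3p (0.906). Among the members themselves r was -0.95 between miR-15a-5p and miR-15b-5p, 0.84 between miR-15a-5p and miR-16-5p and -0.71 between miR-15b-5p and miR-16-5p.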

How the data were processed

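RNA of 6 samples was measured on 8 one-colour Agilent miRNA arrays. The authors deposited Feature Extraction output with a background-subtracted intensity per spot and no normalization between arrays, and the deposited series table held the same intensity within 0.005. The header names Feature Extraction 10.7.1.1 and build mm9, and the submitters' processing notes name version 9.1. The deposited flags (outlier, well above background, saturated; other values set by the software) were also used. Saturated spots numbered 0.

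Control and outlier spots were removed, spots averaged per probe, and each array divided by its 75th percentile over the 174 probes detected on all arrays. Signals below a floor of 16.9 (log2 4.08, the median over arrays of the lowest detected signal) were raised to it before log2. The probe with the highest mean signal stood for a miRNA. The 142 miRNAs that every array of at least 1 group detected entered one limma 3.58.1 fit of all 3 groups in R 4.3.3 with no replicate block (3 residual degrees of freedom), which was tested on simulated data. Precision is limited by the number of RNA samples. Alternatives covered scaling, signal column, background, floor, filter, probes, technical arrays, block, side of the slide and left-out replicates.

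By the naming rule, all members, miRNAs of the same seed and other arms were named, with the largest of the cell cycle list and the 3 most alike for each member. miR-503-5p was added outside it, chosen after its values were seen. Members and lists were chosen with earlier results of these data known. Figures were drawn with matplotlib 3.10.9.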

Additional observations from a re-analysis of the deposited data

How the results depend on the processing

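The 3 members' differences in the 3 comparisons were recomputed under 25 alternatives, 213 values in all, of which 199 kept their direction and side of the threshold. Against control 143 of 144 values kept their sign. Many of these could not change it, since filters, the floor, replicate blocks and the intensity trend leave these members' differences as they were. Leaving out a replicate of a group outside the comparison does so too. These counts therefore overstate how widely the differences were tried. The count of members past the threshold for MT against control, 0 of 3, was 1 under normexp and 1 among miRNAs detected on all 8 arrays, and 0 to 1 when leaving out a replicate, the 1 being without MT replicate 2. In each the member was miR-16-5p, at -0.51, -0.59 and -0.81, and its range with a replicate left out was -0.81 to -0.37. These settings called 40 of 142, 29 of 103 and 18 of 142 miRNAs in all. The cause of the miR-16-5p call was not tested in any of these settings.

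For MT against control, miR-15b-5p was -0.27 with scaling over all mouse probes. For WT against MT it was 0.30 there, 0.021 with the total gene signal, 0.011 with the second technical array alone, 0.10 when the fit had a term for the slide's side and -0.21 to 0.10 when leaving out a replicate. miR-15a-5p was -0.13 with the side term and -0.13 (without WT replicate 2) to 0.31 with a replicate left out, and miR-16-5p was -0.088 (without MT replicate 1) to 0.36. The causes of these changes were not tested. Over all alternatives miR-15a-5p ranged from -0.82 to -0.09 for WT against control, the weakest under normexp, and from -1.27 to -0.12 for MT against control.

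The median over all miRNAs became 0.30 between WT and MT, -0.51 between MT and control and -0.19 between WT and control when the arrays were scaled over all mouse probes. With no filter, limma warned that most residual variances were 0, so that fit is unreliable. Deviations of same-numbered samples correlated at 0.39 between WT and control, but at 0.022 between WT and MT and -0.46 between MT and control, so the numbers were not taken to pair the samples throughout, and the replicate block gave 0 members past the threshold in each comparison. Because of the -0.46 a crossed replicate block was tried after seeing the data. It gave 0 members and 0 of 142 miRNAs with all 3 groups in the fit. A second fit with MT and control alone, run after the first one's calls were seen, gave 2 members (miR-15a-5p at -0.56 and miR-16-5p at -0.59) and 58 of 142. Crossing takes the spread between replicates out of the error, and nothing is drawn from these calls. All arrays were on 1 slide, so the slide could not be a block. With a replicate left out, its group's lone sample was taken to vary as samples of other groups do. Signals near the floor limit what can be said of miR-195-5p, detected on 2 arrays or 6 by the software's own call, and of miR-497-5p, on 1 or 5.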
